A study of Mus musculus with 11 samples.

Results

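The forkhead (Fox) transcription factors were followed across 3 regions of the mouse testis: the Sertoli valve (SV), the rete testis (RT) and the convoluted seminiferous tubules (ST). A Fox gene was taken in wherever a probe set of the array had a single gene symbol made of Fox, 1 letter from a to s and a number, and each gene was represented by its probe set with the highest mean log2 signal. This gave 37 Fox genes of 18194 genes with a probe set of their own, or 82 Fox probe sets of 45101. Of the 44 mouse Fox genes of this naming pattern in the RefSeq gene table, 7 were not analysed here. The SV is the narrow end piece of a seminiferous tubule, lined by Sertoli cells, that opens into the RT, the epithelial network that collects fluid and sperm and leads on to the efferent ducts.

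All tissue came from 7-week-old W/Wv mice, whose 2 mutant alleles of Kit, the receptor for stem cell factor, leave the tubules poor in germ cells, so every region shared this background, and wild-type testes were not analysed here. Trypan blue (0.4%) was run in through the efferent ducts to mark the regions, which were then cut apart by hand, and each array held the RNA of 20 pooled testes, so that p-values measure the spread between pools. There were 4 arrays of SV, 3 of RT and 4 of ST. The fragments were dissected and not sorted by cell type, and the study considered it very probable that the SV pieces held some RT cells, since the tubes are continuous. In pieces of whole tissue, fewer cells of a type and less RNA per cell cannot be told apart.

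Forkhead factors share a winged-helix domain that binds DNA, and many of them open closed chromatin or hold a cell type in its state. FOXJ1 is needed to build motile cilia, FOXO1, FOXO3 and FOXO4 are kept out of the nucleus when AKT phosphorylates them, FOXL2 keeps ovarian supporting cells from turning into Sertoli cells, and FOXC and FOXF factors act in mesenchyme and vessels. In the male tract, FOXJ1 is known from the ciliated cells of the efferent ducts, FOXI1 from the proton-secreting cells of the epididymis, and FOXO1 from spermatogonia.

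Start sites of Fox genes called between the regions are shown, where a window was found, as RefSeq promoter windows of 300 bases. These run from 250 before to 50 after the annotated start, on build GRCm38.p6. Windows were found for 24 of the 37 genes (29 windows). Those of Foxc1, Foxp1 and Foxn3 are printed because these genes were among those called below. The other called genes, Foxj1, Foxq1, Foxo4, Foxn2 and Foxf1, had no window. Foxp1 has 3 annotated starts. The Foxc1 window lies on chr13:31806396-31806695, plus strand. The Foxp1 windows lie on the minus strand at chr6:99520944-99521243, chr6:99266466-99266765 and chr6:99028249-99028548, in the order of transcription. The Foxn3 window lies on chr12:99450025-99450324, minus strand. Each is written from 5′ to 3′ on the gene's strand, and capitals mark every match, on either strand, to the GC box, spelled GGGCGG, to the box named for its letters CCAAT, or to the forkhead core, spelled TGTTTAC, with 0 overlaps between matches in these windows.
Foxc1: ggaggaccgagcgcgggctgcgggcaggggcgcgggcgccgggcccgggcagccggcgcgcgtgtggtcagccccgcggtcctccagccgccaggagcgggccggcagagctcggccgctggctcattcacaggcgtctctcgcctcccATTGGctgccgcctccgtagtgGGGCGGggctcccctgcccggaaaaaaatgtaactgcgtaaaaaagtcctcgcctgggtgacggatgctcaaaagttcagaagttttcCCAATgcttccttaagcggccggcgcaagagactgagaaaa
Foxp1 window 1: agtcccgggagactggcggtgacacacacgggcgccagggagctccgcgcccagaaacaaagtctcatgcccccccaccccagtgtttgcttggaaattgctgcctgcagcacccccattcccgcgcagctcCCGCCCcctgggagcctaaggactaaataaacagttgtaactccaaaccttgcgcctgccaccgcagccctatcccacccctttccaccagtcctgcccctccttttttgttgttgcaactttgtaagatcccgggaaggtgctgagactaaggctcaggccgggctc
Foxp1 window 2: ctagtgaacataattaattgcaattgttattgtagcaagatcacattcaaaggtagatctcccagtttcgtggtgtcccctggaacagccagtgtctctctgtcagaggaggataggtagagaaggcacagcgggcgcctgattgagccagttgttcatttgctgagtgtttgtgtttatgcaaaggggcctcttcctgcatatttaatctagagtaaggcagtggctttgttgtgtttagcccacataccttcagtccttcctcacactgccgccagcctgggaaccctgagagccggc
Foxp1 window 3: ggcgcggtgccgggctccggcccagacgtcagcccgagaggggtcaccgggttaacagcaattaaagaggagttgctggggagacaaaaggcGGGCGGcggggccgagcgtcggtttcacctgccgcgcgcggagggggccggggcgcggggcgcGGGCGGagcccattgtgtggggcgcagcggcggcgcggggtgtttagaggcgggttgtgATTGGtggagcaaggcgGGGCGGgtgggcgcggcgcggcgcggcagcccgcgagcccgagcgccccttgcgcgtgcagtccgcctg
Foxn3: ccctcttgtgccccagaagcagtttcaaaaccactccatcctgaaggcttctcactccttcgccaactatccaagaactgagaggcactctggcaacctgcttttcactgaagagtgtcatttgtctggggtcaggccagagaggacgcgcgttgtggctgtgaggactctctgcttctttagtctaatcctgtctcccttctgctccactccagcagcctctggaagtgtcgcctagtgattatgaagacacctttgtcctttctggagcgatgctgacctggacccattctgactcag

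The Foxc1 window held 32 CpG dinucleotides and the third Foxp1 window 44, against a median of 7 over all 32851 windows of the table. The first and second Foxp1 windows held 13 and 5, and the Foxn3 window 6. Foxc1 had 1 GC box and 2 CCAAT boxes, the third Foxp1 window had 3 GC boxes and 1 CCAAT box, the first Foxp1 window had 1 GC box, and the second Foxp1 window and Foxn3 had none of these motifs. A GC box was present in 21 of the 29 Fox windows and in 35.7% of all windows, a CCAAT box in 13 Fox windows and in 37.4% of all, and the forkhead core in 1 Fox window, that of Foxa1, and in 3.65% of all.

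Each array gave a MAS5.0 signal for every probe set, a linear brightness that the study normalized with that method, and the median over an array lay between 65.8 and 110.4. Values of SV, RT and ST are signals below, and differences between regions are log2 fold changes from 1 limma fit to all 11 arrays, with p-values adjusted over the 45101 probe sets (Benjamini-Hochberg). A gene was called higher or lower at an adjusted p under 0.05 and a change over 2-fold. Of 13 measured markers of the rete epithelium (keratins, claudins, Cdh1, Pax8 and others), 12 were called higher in RT than in ST and 9 were higher in SV than in ST. Their summed signal was 5395 to 12012 in SV, 33068 to 47996 in RT and 1454 to 1714 in ST. Of 15 measured Sertoli cell markers, 10 were lower in RT than in ST and 0 were called between SV and ST, with sums of 124727 to 169268 in SV, 70222 to 93446 in RT and 154692 to 203167 in ST. RT replicate 3 stood nearer to ST than the other RT arrays in both lists. The median rete marker lay 6.57, 6.31 and 5.05 log2 units above the ST mean in RT replicates 1, 2 and 3, and the median Sertoli cell marker 2.88, 2.45 and 1.60 log2 units below it.

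Of the 37 Fox genes, 19 had a mean signal of at least 100 in a region and 18 did not. No filter was applied, and the dim genes stayed in every count. Signals of the 18 dim genes ran from 0.999 to 156 with a median of 22.1, and none of these genes was called in any comparison. Their log2 fold changes were imprecise, with a median standard error (SE) of 0.71 between RT and ST, against 0.21 in the 19 brighter genes. A total of 8 Fox genes were called in at least 1 comparison and 29 in none.

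**Figure D1:**
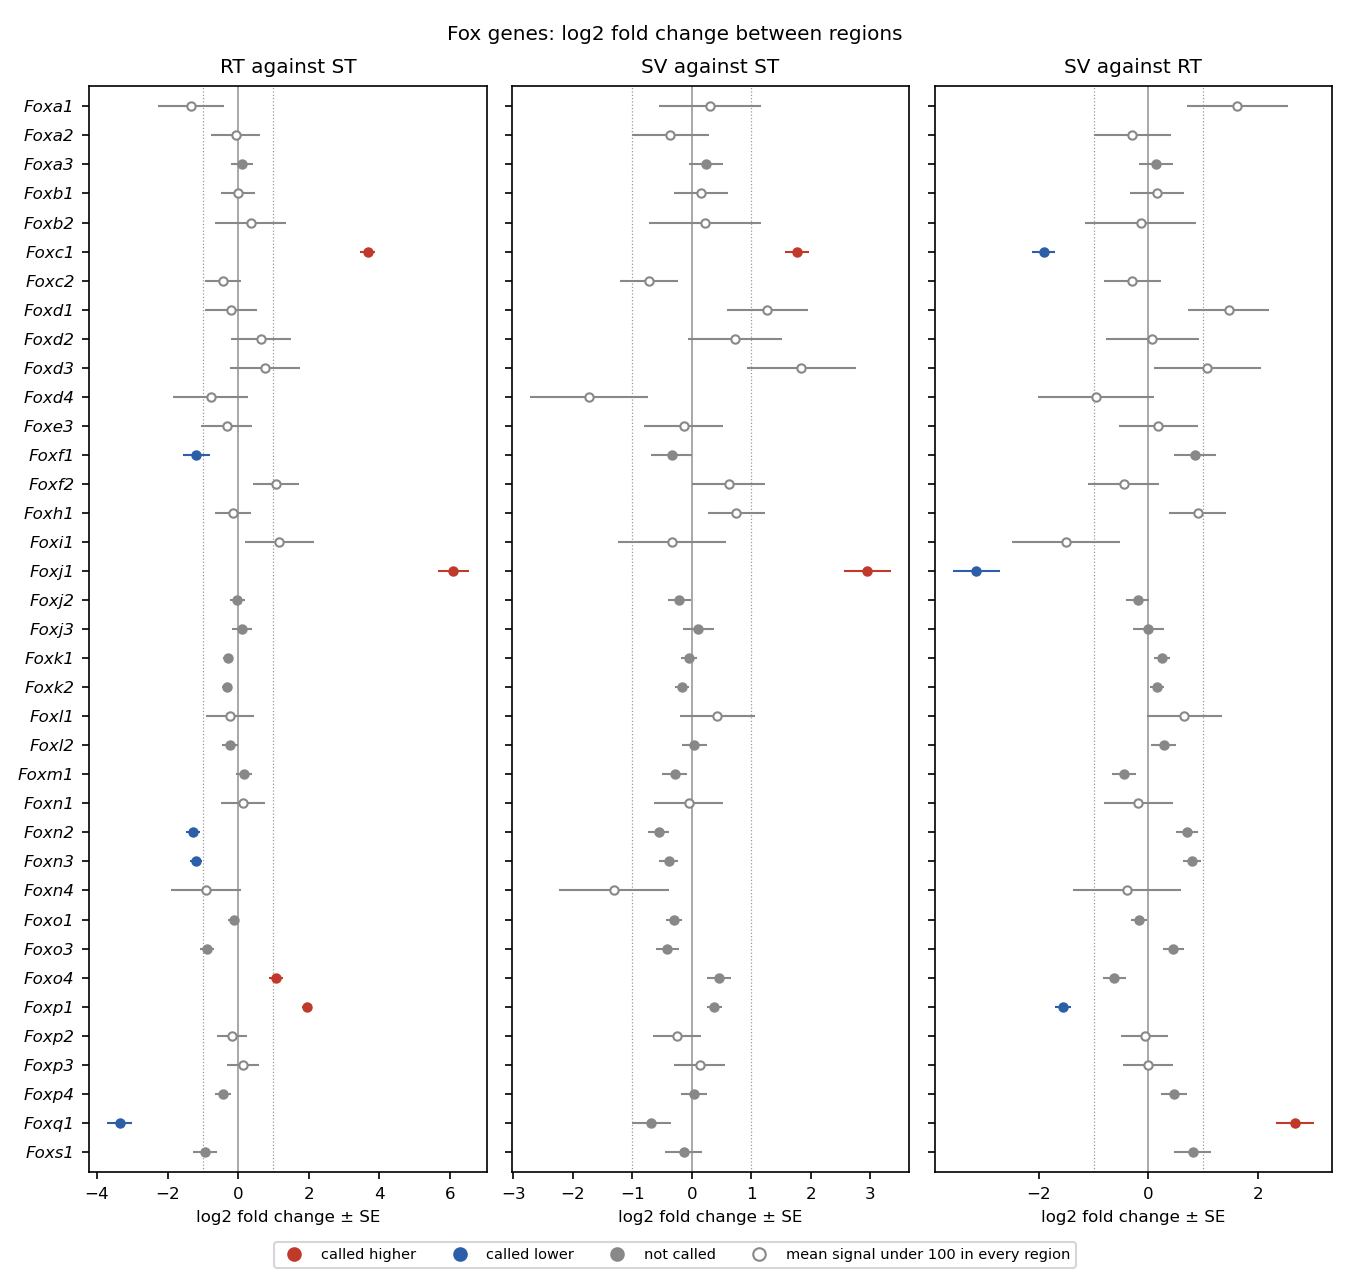
Log2 fold change (x axis, ± SE) of each of the 37 Fox genes between RT and ST, SV and ST, and SV and RT, with dotted lines at 2-fold and open circles for genes with a mean signal under 100 in every region. The 8 called genes are coloured, Foxj1 lies farthest from 0 in each panel (6.10, 2.95 and -3.15), and the open circles carry the widest errors.

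The first question was which Fox genes set the RT apart from the tubules. In RT, 4 Fox genes were called higher than in ST (Foxj1, Foxc1, Foxp1 and Foxo4) and 4 lower (Foxq1, Foxn2, Foxn3 and Foxf1). These were 21.6% of the Fox genes, beside 19.8% of all 18194 genes, so the share called was near that of the array as a whole. Higher calls made up 12.5% and lower calls 7.34% of all genes. Among genes with a mean signal of at least 100 in a region, 8 of 19 Fox genes (42.1%) and 27.1% of 12169 genes were called. Over all probe sets, 10.2% were called higher and 5.48% lower. The median log2 fold change was -0.15 over the Fox genes and 0.08 over all genes. No overlap between the RT and ST arrays was seen for 10 of the 37 Fox genes and for 43% of all genes.

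Foxj1, the factor of motile ciliogenesis, had the log2 fold change farthest from 0 of the 37 Fox genes. Its signal was 295, 139, 131 and 189 in the SV arrays, 2264, 2399 and 732 in the RT arrays and 16.8, 27.2, 33.3 and 18.5 in the ST arrays. All RT arrays stood above all SV arrays, and all SV arrays above all ST arrays. RT replicate 3 had the lowest Foxj1 signal of the RT arrays, as it had the lowest rete marker level, and the part of that array's makeup in the result was not tested. The log2 fold change was 6.10 ± 0.43 between RT and ST (SE, adjusted p = 9.59e-07), and 6.66 without RT replicate 3. Foxj1 was measured by 1 probe set.

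Foxc1, a factor of mesenchyme, eye and vessel development, showed the same order of regions. The signal was 237, 199.7, 157 and 226 in SV, 867, 747 and 686 in RT and 55.1, 73.8, 53.3 and 59.2 in ST. None of the 3 regions overlapped with another. RT exceeded ST by 3.67 ± 0.21 on the log2 scale (SE, adjusted p = 3.27e-07). Both of its probe sets were called higher in RT, by 3.67 and 4.35.

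Foxp1, a repressor with roles in B cells, heart and lung, was high in all regions and highest in RT. Its signal was 987, 891, 785 and 731 in SV, 2464, 2518 and 2475 in RT and 646, 574, 762 and 628 in ST. The RT arrays lay close together and far above the rest, while SV and ST overlapped. RT against ST gave 1.94 ± 0.14 (SE, adjusted p = 1.09e-06). Of its 8 probe sets, 7 were called higher in RT, with log2 fold changes from 1.09 to 2.52, and these 7 were the ones with a mean signal of at least 100 in a region.

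Foxo4, one of the AKT-regulated FOXO factors, had signals of 226, 246, 169 and 259.8 in SV, 297, 367 and 364 in RT and 169, 139.5, 144 and 203 in ST. RT lay above both other regions, and SV overlapped with ST. The log2 fold change was 1.07 ± 0.21 between RT and ST (SE, adjusted p = 0.00195), close to the 2-fold limit. Both probe sets were called higher, by 1.07 and 1.96, but the call was lost under 4 of 16 alternative settings, including quantile normalization (0.79) and centring each array on its median (0.65).

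Foxq1, known for its part in hair shaft formation and in gastric acid secretion, ran the other way. The signal was 465, 626, 964 and 673 in SV, 54.4, 96.6 and 206 in RT and 1061, 1048, 1216 and 926 in ST. RT was far below both other regions, and the highest SV array overlapped with ST. RT against ST gave -3.36 ± 0.35 (SE, adjusted p = 1.72e-05), and the second probe set gave -2.18, also called. RT replicate 3, nearest to ST in the marker lists, had the highest Foxq1 signal of the RT arrays. Foxq1, Foxf2 and Foxc1 are neighbours on chromosome 13 with 0 other coding genes between them. Within this cluster Foxc1 was higher and Foxq1 lower in RT, while Foxf2, with signals from 4.17 to 39.2, gave 1.07 ± 0.65 (SE, adjusted p = 0.28). The second Foxf2 probe set, also dim, went the other way, at -1.49 ± 0.82 (SE, adjusted p = 0.221).

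Foxn3, known in human cells as a checkpoint suppressor, had signals of 2512, 3229, 2689 and 2094 in SV, 1401, 1678 and 1418 in RT and 3420, 4061, 3687 and 2658 in ST. RT lay below every array of the other regions. The log2 fold change between RT and ST was -1.19 ± 0.17 (SE, adjusted p = 1.81e-04). Of its 4 probe sets, 2 were called lower, within a range of -1.41 to -0.41.

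Foxn2, a relative of Foxn3, had signals of 857, 1114, 1654 and 1154 in SV, 605, 834 and 720.0 in RT and 1542, 1613, 1954 and 1786 in ST. Here too RT lay below all other arrays, and only SV replicate 3 reached the ST range. RT against ST gave -1.27 ± 0.20 (SE, adjusted p = 3.30e-04). The second, dim probe set gave 0.43 and was not called.

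Foxf1, a mesenchymal factor that responds to hedgehog signals in lung and gut, was the least firm of the calls. Its signal was 171, 208, 239.9 and 284 in SV, 89.2, 99.3 and 209.9 in RT and 139, 309, 327 and 438 in ST. RT replicate 3 and ST replicate 1 overlapped. RT against ST gave -1.19 ± 0.38 (SE, adjusted p = 0.0357), and the second probe set gave -0.37, not called. The call did not hold under 8 of 16 alternative settings or when any of 5 single arrays was left out (RT replicates 1 and 2, ST replicates 2, 3 and 4), with log2 fold changes from -1.14 to -0.96 without one of these.

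**Figure D2:**
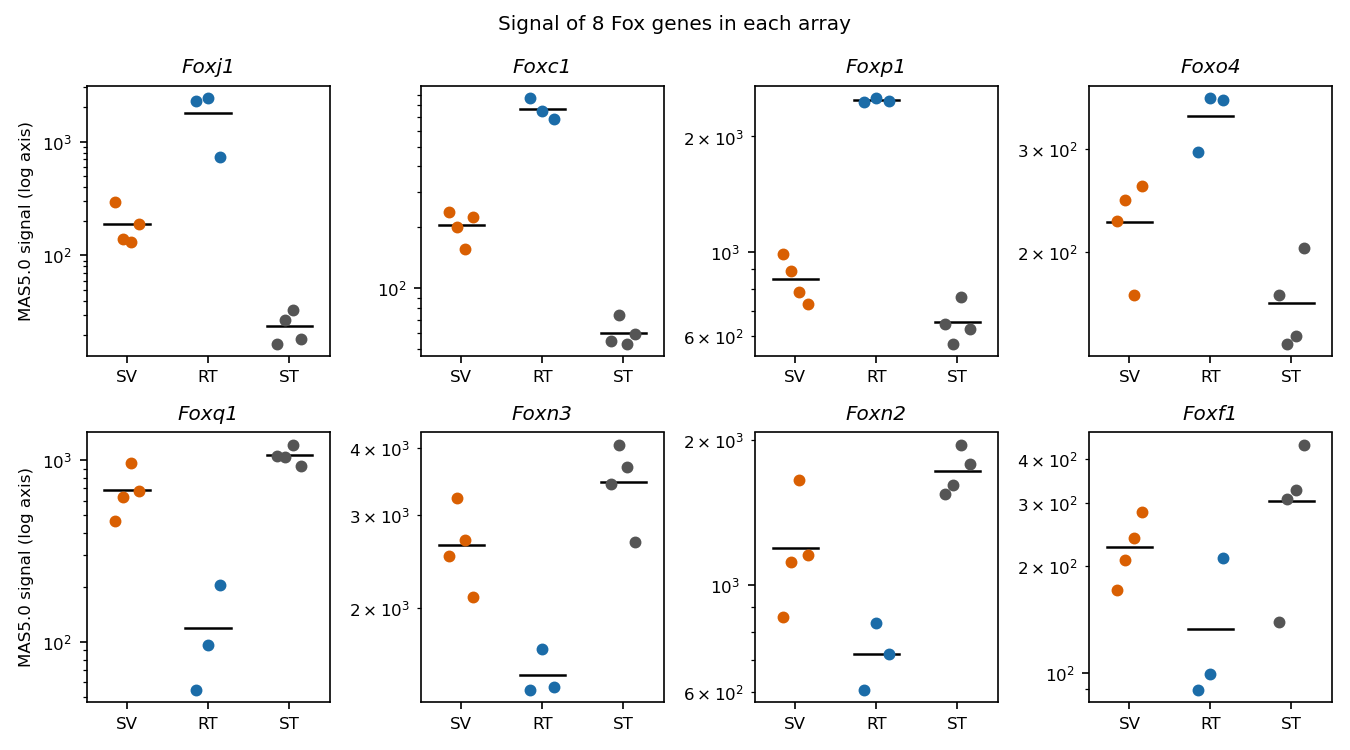
MAS5.0 signal (y axis, log scale, own range per panel) of the 8 called Fox genes in each array of SV, RT and ST, with bars at the arithmetic means. Foxj1, Foxc1, Foxp1 and Foxo4 are highest in RT, Foxq1, Foxn3, Foxn2 and Foxf1 are lowest in RT, and SV lies between the other regions in all 8 panels.

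**Figure D3:**
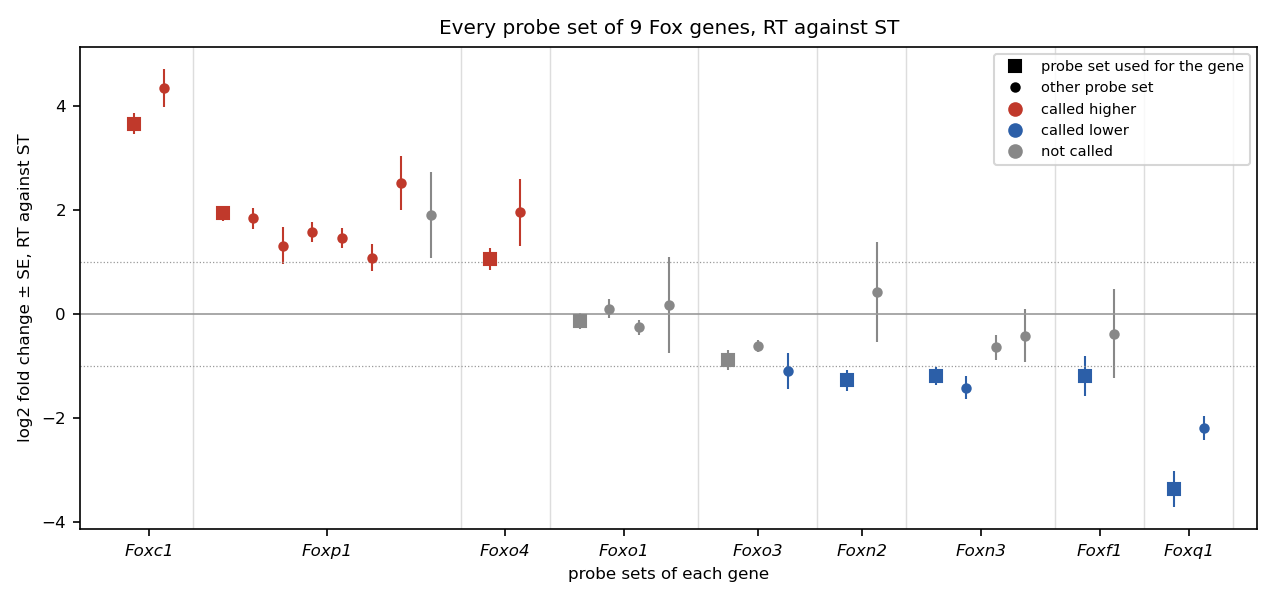
Log2 fold change (y axis, ± SE) between RT and ST for every probe set of 9 Fox genes, with squares for the probe set that stands for the gene and dotted lines at 2-fold. All 8 Foxp1 probe sets lie above 0 and 7 are called, whereas Foxn3, Foxf1 and Foxn2 have probe sets that were not called.

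Foxo3, which keeps ovarian primordial follicles dormant, passed the adjusted p but stayed under 2-fold. Its signal was 3746, 3540, 6308 and 4496 in SV, 3162, 3258 and 3163 in RT and 6156, 4352, 7068 and 6245 in ST. The RT arrays nearly coincided and lay below all others, and the SV and ST arrays overlapped. RT against ST gave -0.88 ± 0.20 (SE, adjusted p = 0.00538), and the 3 probe sets ran from -1.09 to -0.61 with 1 of them called. Foxo1, which is needed to keep spermatogonial stem cells in mice, had signals of 899, 769.7, 1073 and 799 in SV, 1147, 964 and 872 in RT and 1055, 1002, 1274 and 1005 in ST. The arrays of the 3 regions overlapped, RT against ST gave -0.13 ± 0.15 (SE, adjusted p = 0.622), and none of the 4 Foxo1 probe sets was called. Of the 3 FOXO genes analysed, Foxo4 was thus called higher in RT, Foxo3 was lower there by under 2-fold, and Foxo1 was not called.

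Foxl2, the ovarian fate factor, had signals of 280.3, 214, 193 and 173 in SV, 217, 159 and 151 in RT and 217, 233, 215 and 162 in ST. These overlapped between all regions, with -0.24 ± 0.23 for RT against ST (SE, adjusted p = 0.516). Foxm1, which drives the genes of mitosis, had signals of 126, 114, 171 and 193 in SV, 219, 177 and 211 in RT and 177, 180.3, 165 and 201 in ST. Its RT and ST arrays overlapped, and the log2 fold change was 0.16 ± 0.22 (SE, adjusted p = 0.681). Foxa3, whose loss lowers male fertility in mice, had signals of 117, 168, 70.6 and 115 in SV, 98.7, 96.8 and 111 in RT and 124, 97.3, 79.5 and 84.6 in ST. It too overlapped in every comparison (RT against ST 0.10 ± 0.31, SE, adjusted p = 0.857).

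Among the dim Fox genes, 3 have known roles in ducts, lymphatics or immune cells. Foxi1, the ionocyte factor, had signals of 8.98, 16.6, 2.15 and 41.4 in SV, 25.5, 39 and 28 in RT and 3.04, 29, 26.9 and 14 in ST. All regions overlapped, and RT against ST gave 1.17 ± 0.99 (SE, adjusted p = 0.455). Foxc2, the lymphatic valve factor and close relative of Foxc1, had signals of 20.9, 51.8, 97.7 and 94.5 in SV, 65.8, 61.4 and 79.9 in RT and 66.3, 111, 64.1 and 156 in ST, also with overlap and with a log2 fold change of -0.43 ± 0.52 (SE, adjusted p = 0.613). Foxp3, the factor of regulatory T cells, had signals of 56.1, 29.2, 28 and 58.3 in SV, 58.9, 24.9 and 45.8 in RT and 36.5, 31.2, 51.2 and 31.9 in ST, and gave 0.14 ± 0.46 (SE, adjusted p = 0.875).

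The remaining bright Fox genes that were not called were Foxj2, Foxj3, Foxk1, Foxk2, Foxp4 and Foxs1, of which 3 are given here by name, chosen after their values were seen. Foxk1 and Foxk2, which act on genes of metabolism and autophagy, did not overlap between RT and ST but differed little, by -0.30 ± 0.14 (SE, adjusted p = 0.132) and -0.33 ± 0.13 (SE, adjusted p = 0.087). Foxs1, a factor of vessel-associated cells, had signals of 173, 124, 101 and 139 in SV, 79.5, 45.8 and 117 in RT and 179, 119, 117 and 179.7 in ST. Its RT arrays were low or at the lower edge of ST, and RT against ST gave -0.95 ± 0.34 (SE, adjusted p = 0.0555). Over all 11 bright genes that were not called, the log2 fold changes between RT and ST ran from -0.95 to 0.16. The 18 dim genes ran from -1.33 to 1.17, and 3 of them passed 2-fold without passing the adjusted p.

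The next comparison asked which Fox genes differ along the tubule itself, between SV and the convoluted part. In SV, Foxj1 and Foxc1 were called higher than in ST and 0 Fox genes lower. These 2 genes were 5.41% of the Fox genes, beside 2.47% of all genes. Among the brighter genes, 2 of 19 Fox genes (10.5%) and 3.56% of all were called. Higher calls made up 2.39% and lower calls 0.0769% of all genes, and 1.5% and 0.0665% of all probe sets. At an unadjusted p under 0.05 there were 4 Fox genes higher and 3 lower, beside 12% of all genes higher and 6.41% lower. The SV and ST arrays did not overlap for 3 Fox genes and for 10.8% of all genes. The median log2 fold change was -0.05 over the Fox genes and 0.02 over all genes.

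Foxj1 exceeded ST by 2.95 ± 0.40 in SV (SE, adjusted p = 0.00124) and Foxc1 by 1.76 ± 0.20 (SE, adjusted p = 3.13e-04). The linear means were 188 ± 75.6 in SV against 24 ± 7.71 in ST for Foxj1 (SD, n = 4 each), and 205 ± 35.3 in SV against 60.3 ± 9.33 in ST for Foxc1 (SD, n = 4 each). Both probe sets of Foxc1 were called, at 1.76 and 2.14. Foxn2 (-0.56 ± 0.18, adjusted p = 0.153) and Foxn3 (-0.39 ± 0.16, adjusted p = 0.282) gave negative values, and Foxp1 (0.38 ± 0.13, adjusted p = 0.184) and Foxo4 (0.46 ± 0.20, adjusted p = 0.326) positive ones, without passing the test. Foxq1 gave -0.68 ± 0.33 (SE, adjusted p = 0.402). Foxd1, a dim gene with signals of 53.6, 46.6, 51.9 and 41.5 in SV and 11.4, 41.2, 27.5 and 12.3 in ST, did not overlap between SV and ST and gave 1.27 ± 0.68 (SE, adjusted p = 0.477); it was picked out here after its values were seen.

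Rete markers moved with both SV calls. In SV replicates 1 to 4 the median rete marker lay 3.94, 3.07, 2.24 and 3.31 log2 units above the ST mean, and the SV arrays with the highest and lowest rete marker level, replicates 1 and 3, were also those with the highest and lowest signal of Foxj1 and of Foxc1. Their part in the 2 calls was not tested.

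SV and RT were then set against each other. In SV, Foxq1 was called higher than in RT, and Foxj1, Foxc1 and Foxp1 lower. These 4 genes were 10.8% of the Fox genes, the same share as in all genes (10.8%). Of all genes, 4.39% were called higher and 6.41% lower and of all probe sets 2.95% higher and 4.99% lower. Among the brighter genes, 4 of 19 Fox genes (21.1%) and 15.2% of all were called. SV exceeded RT by 2.68 ± 0.35 for Foxq1 (SE, adjusted p = 4.16e-04). The log2 fold change was -3.15 ± 0.43 for Foxj1 (SE, adjusted p = 4.84e-04), -1.91 ± 0.21 for Foxc1 (SE, adjusted p = 2.07e-04) and -1.56 ± 0.14 for Foxp1 (SE, adjusted p = 1.59e-04). Of the 8 Foxp1 probe sets, 7 were called lower in SV, and both Foxq1 probe sets were called higher.

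Foxn3 and Foxn2 passed the adjusted p under 2-fold, at 0.80 ± 0.17 (SE, adjusted p = 0.00708) and 0.70 ± 0.20 (SE, adjusted p = 0.0291), and for each the SV and RT arrays did not overlap. Foxo4 gave -0.62 ± 0.21 (SE, adjusted p = 0.0719), Foxf1 0.85 ± 0.38 (SE, adjusted p = 0.175) and Foxm1 -0.45 ± 0.22 (SE, adjusted p = 0.231). Centring each array on its median brought Foxf1 (1.17), Foxn2 (1.02) and Foxn3 (1.11) over the limit and raised the count of higher genes to 5. No overlap between the SV and RT arrays was seen for 10 of the 37 Fox genes and for 32.2% of all genes, and the median log2 fold change was 0.07 over the Fox genes and -0.04 over all genes. The 3 comparisons share arrays, and their counts are not independent of each other.

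The SV mean lay between the RT and ST means in 8 of the 8 called Fox genes and in 13 of the 19 bright ones. The share over all genes was not counted, so these counts do not show a trait particular to Fox genes. The place of each SV array was expressed as the percentage of the way from the ST mean to the RT mean on the linear signal, where 0% is ST and 100% is RT. Among genes higher in RT, Foxj1 stood at 15.3%, 6.46%, 6.01% and 9.29% in SV replicates 1 to 4. Foxc1 stood at 25%, 19.7%, 13.8% and 23.5%, and Foxp1 at 18.2%, 13%, 7.22% and 4.29%. For comparison, the median of the 12 rete markers higher in RT was 25.2%, 13.6%, 8.61% and 20.4%, so Foxj1 and Foxp1 lay nearer to ST than the rete markers in all 4 SV arrays, and Foxc1 farther from ST in all but replicate 1. Foxo4 was more scattered, at 34.9%, 46.1%, 2.65% and 53.6%.

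Among genes lower in RT, Foxq1 stood at 63.3%, 46.3%, 10.4% and 41.3%, beside 62%, 38.6%, 14.1% and 49.3% for the median of the 10 Sertoli cell markers lower in RT. Foxn2 stood at 86.4%, 60.7%, 6.96% and 56.7%. SV replicate 3 was nearest to ST in Foxq1, Foxn2 and the Sertoli cell markers, and SV replicate 1 nearest to RT. Foxn3 did not follow this order, at 48.2%, 11.6%, 39.2% and 69.6%, nor did Foxf1, at 77.9%, 56.1%, 37.1% and 11%. The mean over the 4 SV arrays was 9.26% ± 4.26 for Foxj1, 20.5% ± 4.99 for Foxc1 and 10.7% ± 6.21 for Foxp1, and 40.3% ± 22 for Foxq1, 42.2% ± 24 for Foxn3, 52.7% ± 33.2 for Foxn2 and 45.5% ± 28.4 for Foxf1 (SD, n = 4). The choice of called genes fixed that RT and ST differ, so these percentages are a description with no test.

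**Figure D4:**
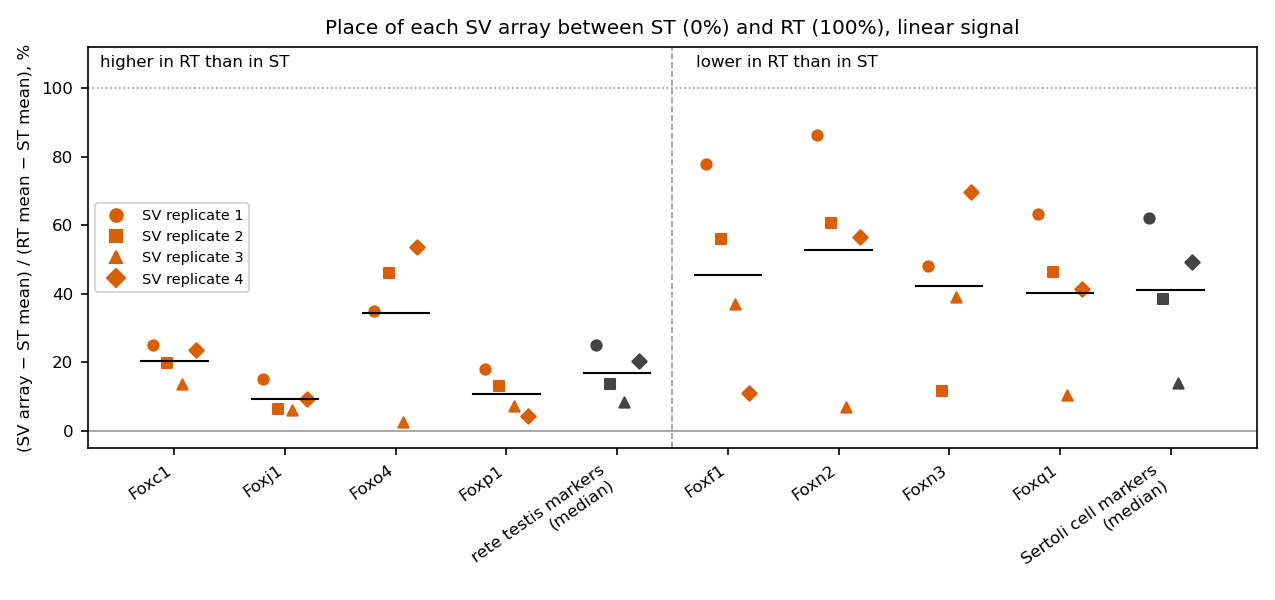
Place of each SV array between the ST mean (0%) and the RT mean (100%) on the linear signal (y axis) for the 8 called Fox genes and, in dark grey, the median of the rete testis and Sertoli cell markers, with 1 marker shape per replicate and bars at the means. Foxj1, Foxc1, Foxp1 and the rete markers lie at or under 25.2%, and the genes lower in RT scatter from 6.96% to 86.4%.

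Genes known to work with individual Fox factors were counted next. List counts are to be read beside the shares over all genes. These were 12.5% higher and 7.34% lower in RT against ST, and 2.39% and 0.0769% in SV against ST. In SV against RT they were 4.39% and 6.41%. FOXJ1 switches on the genes of the motile cilium. Of 28 measured genes of this programme, 21 were called higher in RT than in ST and 0 lower, with a median log2 fold change of 3.26, beside 0.08 over all genes. Between SV and ST 6 were higher and 0 lower (median 0.91), and between SV and RT 0 were higher and 16 lower (median -2.38). After median centring 1 gene was called lower in RT.

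Dynlrb2, a dynein light chain, had signals of 484, 192, 121 and 259.8 in SV, 3367, 3266 and 1223 in RT and 41, 2.43, 11.5 and 4.96 in ST. Its regions did not overlap, and the order was that of Foxj1. RT exceeded ST by 8.10 ± 0.78 (SE, adjusted p = 8.78e-06), and SV exceeded ST by 4.74 ± 0.72 (SE, adjusted p = 0.00292). Spag16, of the central pair of the axoneme, gave 5.81 ± 0.91 in RT against ST (SE, adjusted p = 3.55e-04), and Lrrc23, a radial spoke component, 5.58 ± 0.63 (SE, adjusted p = 2.85e-05). Tekt1, a tektin of the doublet microtubules, gave 5.12 ± 0.96 (SE, adjusted p = 0.00142). In SV against ST, Lrrc23 (3.13 ± 0.58, adjusted p = 0.0123), Dnali1 (2.37 ± 0.52, adjusted p = 0.0311) and Rsph4a (1.83 ± 0.42, adjusted p = 0.0385) were called too. The programme was not uniform: Dnah5, an outer arm dynein, gave 2.13 with an adjusted p of 0.0729, Rsph1 0.59 under 2-fold, and Spag6 -2.36 with an adjusted p of 0.0881; these 3 were chosen after their values were seen. The summed signal of the 28 genes was 3899 to 5645 in SV, 11222 to 21395 in RT and 3114 to 3522 in ST. All 8 genes used as markers of ciliated cells are in this programme, and the level of Foxj1 per ciliated cell was not measured. Of 13 measured efferent duct and epididymis markers, Foxj1 among them, 6 were higher in RT than in ST and 4 in SV than in ST, with sums of 18208 to 35879 in SV, 33039 to 39652 in RT and 11511 to 16286 in ST. Their part in the Foxj1 result was not tested.

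FOXI1 governs the proton pump and ion exchangers of ionocytes. Of 13 measured genes of this kind, 4 were called higher in RT than in ST and 0 lower, with a median of 1.53. Between SV and ST, 2 were higher. The median gene of the list lay 1.71, 1.46 and 0.37 log2 units above the ST mean in RT replicates 1, 2 and 3. The summed signal was not raised in RT, at 4022 to 7345 in SV, 5667 to 6815 in RT and 5678 to 7736 in ST. Cftr, a chloride channel, had signals of 171, 96.1, 50.4 and 159.7 in SV, 1441, 1255 and 1432 in RT and 21.1, 17.5, 28.2 and 33.8 in ST. It separated all 3 regions, with 5.82 ± 0.39 for RT against ST (SE, adjusted p = 7.83e-07). Car2, a carbonic anhydrase, gave 4.01 ± 0.35 (SE, adjusted p = 4.32e-06), Atp6v1b1, the pump's B1 subunit, 2.70 ± 0.79 (SE, adjusted p = 0.0222), and Car12 2.05 ± 0.37 (SE, adjusted p = 9.51e-04). Atp6v1b1 was dim, at 83, 50.2, 21.7 and 6.16 in SV, 50, 45.5 and 31.6 in RT and 9.32, 7.83, 6.17 and 3.71 in ST. Cftr and Car2 are made by many epithelia, and after median centring 1 gene of the list was called lower in RT. Foxi1 itself was dim.

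AKT acts upstream of the FOXO factors. Of 18 measured genes of the PI3K and AKT pathway, 3 were called higher and 2 lower in RT than in ST, beside 12.5% and 7.34% of all genes. Between SV and ST 0 were called (median -0.09), which does not show that their levels were equal. Phosphorylation of AKT, which the study stained for, was not measured by these arrays. Pik3r1, the regulatory subunit of PI3K, had signals of 1850, 1621, 721 and 1261 in SV, 3675, 3698 and 2418 in RT and 962, 844, 658 and 822 in ST. RT stood above both other regions, with 1.98 ± 0.28 for RT against ST (SE, adjusted p = 1.51e-04). Irs1, an insulin receptor substrate, gave 1.53 ± 0.26 (SE, adjusted p = 6.03e-04) and Sgk1, a kinase that also phosphorylates FOXO factors, 1.26 ± 0.14 (SE, adjusted p = 2.88e-05), while Akt2 gave -1.02 ± 0.13 (SE, adjusted p = 8.00e-05). After median centring 2 were higher and 4 lower in RT, and the list's median, 0.20 before, was -0.22.

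Of 20 FOXO target genes, 2 were higher and 1 lower in RT than in ST (median 0.19), beside 12.5% and 7.34% of all genes. After median centring 1 was higher and 2 were lower (median -0.23). Igfbp1, a secreted binder of insulin-like growth factors, had signals of 19.7, 1.3, 5.04 and 40.1 in SV, 389, 377 and 76.8 in RT and 4.6, 5.94, 4.44 and 4.28 in ST. All RT arrays stood above all others, with 5.55 ± 1.01 for RT against ST (SE, adjusted p = 0.00112). Cited2, a transcriptional coactivator, gave -1.59 ± 0.17 (SE, adjusted p = 1.94e-05), and Cat, the gene of catalase, 1.00 ± 0.22 (SE, adjusted p = 0.00421), at the 2-fold limit. Gadd45a, a growth arrest gene, was the 1 target called between SV and ST, at 1.09 ± 0.19 (SE, adjusted p = 0.00856).

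FOXM1 targets, the genes of mitosis, were counted beside Foxm1, which was not called. Of 19 measured, 0 were higher and 9 lower in RT than in ST, with a median of -1.24. None was called between SV and ST (median -0.54), and 4 were higher in SV than in RT. Cdk1, the mitotic kinase, had signals of 1010, 1278, 2192 and 1337 in SV, 218, 270.2 and 548 in RT and 2202, 2103, 2426 and 2145 in ST. RT lay below all other arrays, and RT against ST gave -2.80 ± 0.29 (SE, adjusted p = 1.50e-05). Bub1, of the spindle checkpoint, gave -2.92 ± 0.50 (SE, adjusted p = 7.04e-04), Cenpf, a kinetochore protein, -2.01 ± 0.47 (SE, adjusted p = 0.00594), and Ccna2, cyclin A2, -1.79 ± 0.30 (SE, adjusted p = 5.45e-04). The count of lower genes rose to 14 with quantile normalization and to 15 with median centring. By calls, germ cell markers went the same way: of 11 measured, 7 were lower and 1 higher in RT than in ST. Their summed signal in RT overlapped with both other regions. It was 3966 to 4909 in SV, 4608 to 5358 in RT and 4210 to 8035 in ST. The sums of the FOXM1 targets were lowest in RT, at 7030 to 10665 in SV, 4339 to 6110 in RT and 8208 to 12518 in ST. The median target stood at -1.17, -1.52 and -0.78 log2 units from the ST mean in RT replicates 1, 2 and 3. ST replicate 1, at -0.73, lay close to RT replicate 3, while ST replicates 2, 3 and 4 stood at -0.01, 0.24 and 0.47. The Sertoli cell list fell in RT too, with 10 of its 15 genes called and a median of -2.42. The part of remaining germ cells or of Sertoli cells in the FOXM1 targets was not tested.

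FOXL2 and the factors of testis fate oppose each other in the gonad. Of 13 measured genes of this circuit, 2 were higher and 3 lower in RT than in ST, and after median centring 1 was higher and 5 were lower. Rspo1, an ovary-promoting activator of WNT signals, had signals of 1103, 648, 275 and 654 in SV, 3873, 3653 and 2195 in RT and 124, 76.1, 66.5 and 74.3 in ST. The 3 regions were fully separated, with 5.25 ± 0.38 for RT against ST (SE, adjusted p = 1.21e-06) and 2.86 ± 0.35 for SV against ST (SE, adjusted p = 6.68e-04). The Sertoli cell genes Amh (-3.45 ± 0.57, adjusted p = 5.40e-04), Dmrt1 (-3.05 ± 0.28, adjusted p = 6.78e-06) and Sox8 (-2.16 ± 0.16, adjusted p = 1.29e-06) were lower in RT. Sox9, Wt1 and Gata4, which are in this list and among the Sertoli cell markers, were not called between RT and ST. Wnt4, another ovary-promoting ligand, was highest in SV, with signals of 1414, 1403, 905 and 1029 there, 567, 481 and 526 in RT and 436, 387, 293 and 379.7 in ST. SV overlapped with neither region, and SV against ST gave 1.66 ± 0.17 (SE, adjusted p = 1.91e-04).

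Hedgehog ligands act upstream of FOXF and FOXD genes in several organs. Of 10 measured hedgehog genes, 4 were higher and 1 lower in RT than in ST (median 0.67), and 3 were higher and 2 lower after quantile normalization or median centring. Gli2, a transcription factor of the pathway, had signals of 307, 189, 218 and 404 in SV, 1013, 1011 and 1339 in RT and 152, 127, 194 and 152 in ST. RT lay above all other arrays, with 2.85 ± 0.25 for RT against ST (SE, adjusted p = 5.20e-06). Smo, the signal transducer, gave 2.51 ± 0.23 (SE, adjusted p = 5.82e-06) and the ligand Ihh 2.24 ± 0.53 (SE, adjusted p = 0.00674), whereas Dhh, the ligand made by Sertoli cells, gave -1.97 ± 0.24 (SE, adjusted p = 4.85e-05). Foxf1 was lower in RT in the same arrays, and Foxd1 and Foxd2 were dim.

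**Figure D5:**
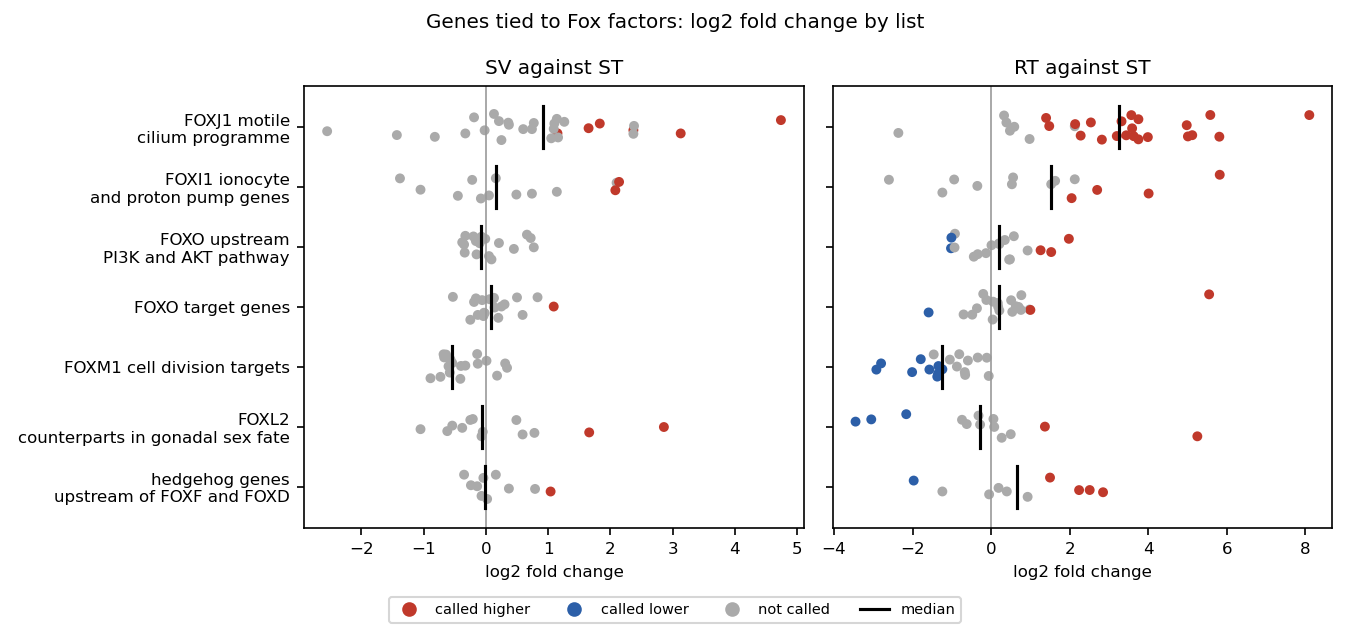
Log2 fold change (x axis) of each measured gene in 7 lists tied to Fox factors, between SV and ST and between RT and ST, with black bars at the list medians and colours for calls. The FOXJ1 cilium programme lies farthest to the right in RT (median 3.26), the FOXM1 targets lie to the left (median -1.24), the FOXI1 list holds calls on the higher side alone (4 of 13 genes), and the other 4 lists hold calls on both sides.

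Markers of other cell types were counted beside the mesenchymal and vascular Fox genes. For scale, 19.8% of all genes were called between RT and ST and 2.47% between SV and ST. Of 10 endothelial markers, 3 were higher and 1 lower in RT than in ST, with sums of 3090 to 6359 in SV, 5275 to 7178 in RT and 2301 to 3576 in ST. Of 6 lymphatic markers, 3 were higher in RT, with sums of 2780 to 4435 in SV, 6357 to 7252 in RT and 1747 to 2548 in ST. Of 9 smooth muscle and myoid markers, 1 was higher and 3 were lower in RT, with sums of 17495 to 20040 in SV, 10045 to 13727 in RT and 17771 to 26246 in ST. Among 8 stromal markers 1 was called higher in RT, with a median log2 fold change of 0.88. Stromal sums were 47257 to 61128 in SV, 65547 to 78432 in RT and 44428 to 64634 in ST, so RT lay above both. Among 8 macrophage markers 1 was higher in RT, and among 5 Leydig cell and 6 lymphocyte markers 0 were called. Between SV and ST, where Foxc1 was also called, 1 endothelial and 0 lymphatic markers were higher. The part of these cell types in the Foxc1 and Foxf1 results was not tested.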

How the data were processed

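The 11 samples were total RNA of SV, RT and ST fragments, purified with a column kit, turned into biotin-labelled cRNA with a 3′ IVT kit and hybridised to Mouse Genome 430 2.0 arrays. The deposited values are linear signal intensities that the authors computed with MAS5.0, per the labels and the methods, whose software version is not given in the sources used here. No detection calls were used, so signal alone showed which probe sets were dim. The labels give 4 SV, 3 RT and 4 ST samples as biological replicates, while the series' design text states 3 of each, and the labels were followed. Arrays have no count depth, and their number limits the precision.

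Probe sets were named from GEO's platform annotation (34958 with 1 symbol, 932 with several, 9211 with none). All 82 Fox probe sets matched RefSeq by Entrez ID with 0 symbols changed, and 2 more with several symbols were left out. Signals were log2-transformed with no further scaling, filter or pseudocount, and fitted with limma 3.58.1 in R 4.3.3 (lmFit, eBayes with trend, all 11 arrays, no covariate), which was tested on simulated data. The methods compared regions with a t-test at over 2-fold, and limma took its place. A call needed an adjusted p under 0.05 (Benjamini-Hochberg, 45101 probe sets) and over 2-fold. No set test was run. Percentages of genes called use 1 probe set per gene.

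The Fox genes, partner lists, marker lists and rules were chosen with earlier results of these data known. Genes given per array were the Fox genes called in any comparison and those with a known role in the testis or its ducts or tied to a partner list, and in each list up to 4 called genes with the largest change. Alternatives covered the test, samples in the fit, normalization, pseudocount or floor of 32, a filter at a signal of 100, moderation, replicate number as a block, replicate sets, fold threshold, choice of probe set and leaving out each array. Promoter windows came from RefSeq.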

Additional observations from a re-analysis of the deposited data

How the results depend on the processing

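Of the log2 fold changes of the 16 named Fox genes, 0 called ones changed sign under the alternatives run. Foxc1, Foxj1, Foxn2, Foxp1 and Foxq1 kept their RT against ST call under all 16 alternative settings and with each of the 11 arrays left out. Some of these could hardly remove a call. Dropping the fold threshold only loosened the rule, and choosing the probe set by its highest signal in any array gave the same probe sets. Leaving out an SV array changed the estimate of spread but not the RT against ST fold change. With replicates 3 and 4 alone, a fit of 5 arrays with 1 RT array that was assumed to vary like the others, the counts were 2 lower in RT against ST (4 in the full fit), 0 higher in SV against ST (2), and 0 higher (1) and 0 lower (3) in SV against RT. The methods' t-test on log2 signal at their threshold gave 4 higher and 3 lower Fox genes in RT against ST, 3 higher and 0 lower in SV against ST, and 1 higher and 3 lower in SV against RT. After Benjamini-Hochberg adjustment it gave 4 higher and 3 lower in RT against ST, 1 higher, Foxc1, and 0 lower in SV against ST, and 0 higher and 2 lower in SV against RT. The count of genes higher in SV than in RT was 2 with quantile normalization, 5 with median centring, 3 with no fold threshold and 2 where any probe set of a gene counted. Leaving out 1 array at a time gave 1 to 2 there (2 without RT replicate 3), and 3 to 5 genes lower in RT than in ST. Foxn3 lost its RT against ST call with replicates 3 and 4 alone. Foxo3 was called lower in RT without ST replicate 2 (-1.02) and after median centring (-1.30).

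Scaling moved the split of calls over all genes. In RT against ST, 63% of called genes were higher in the full fit (2272 higher, 1335 lower), 51.8% with quantile normalization (1857 higher, 1730 lower) and 34.8% with median centring (1452 higher, 2724 lower), where the median gene moved to -0.35. In SV against RT the share was 40.7% in the full fit (799 higher, 1166 lower), 51.9% with quantile normalization (1044 higher, 968 lower) and 67.9% with median centring (1547 higher, 731 lower), where the median gene moved to 0.27.

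With replicate number as a block the Fox counts were unchanged: 4 higher and 4 lower in RT against ST, 2 higher and 0 lower in SV against ST, and 1 higher and 3 lower in SV against RT. The lists were less steady under other settings: over all alternatives, 123 of 1092 list counts moved by over 1.5 times or to or from 0. With replicates 3 and 4 alone, where RT had 1 array, the cilium programme lost most of its calls. The block changed 7 of 42 list counts, and 1 of these by over 1.5 times, FOXO targets higher in RT than in ST (1 in place of 2). The others were cilium genes higher in SV than in ST (7 in place of 6) and lower in SV than in RT (20 in place of 16), FOXI1 genes higher in SV than in ST (3 in place of 2), FOXM1 targets lower in RT than in ST (8 in place of 9) and higher in SV than in RT (5 in place of 4), and hedgehog genes higher in RT than in ST (3 in place of 4). Deviations from the region means correlated at 0.069 to 0.19 between arrays of the same number over all 45101 probe sets, at 0.07 to 0.178 between other numbers within replicates 1 and 2 or within 3 and 4, and at -0.179 to -0.076 across these sets. Over the 24196 brighter probe sets the same-number values were 0.237 to 0.578, overlapping with 0.167 to 0.413 for other numbers within a set. Across the sets they were -0.513 to -0.259. The deviations within a region sum to 0, so positive values with some arrays must be offset by negative ones with others. The best match of 10 of the 11 arrays carried its own number, a hint from the data and not from the design, and the numbers were not used as pairs.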
